A study of Mus musculus with 2 samples.

Results

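The acute phase proteins are plasma proteins that the liver secretes in larger or smaller amounts during infection and injury. Their genes were examined in liver mRNA sequencing of mice with an inducible deletion of the insulin receptor in adipocytes. The group held 10 genes chosen by symbol, the serum amyloid A genes *Saa1*, *Saa2*, *Saa3* and *Saa4*, the orosomucoid genes *Orm1* and *Orm2*, and *Lcn2*, *Hp*, *Hpx* and *Apcs*, of 53241 distinct symbols in the files. Each symbol was found in 1 row of each file. One library came from a control liver and one from an iFIRKO liver, so n = 1 for each genotype and no difference has a replicate check. iFIRKO mice are Adipoq-CreERT2; Insr flox/flox animals, in which tamoxifen activates a Cre recombinase driven by the adiponectin promoter, and Cre then removes the insulin receptor gene *Insr* from adipocytes. The control animals are given as WT in the sample labels and as IR flox/flox in the study's methods, and they are not stated to carry the Cre. All mice were male, were 7 weeks old at the start and were sampled 3 days after the last of 5 daily doses of tamoxifen (100 mg/kg). Whether a library holds RNA of 1 animal or of several is not stated in the sources used here.

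In the acute phase response, cytokines released by macrophages, chiefly interleukin 6 and interleukin 1, act on receptors of hepatocytes and on the transcription factors STAT3, NF-κB and C/EBP. Transcripts of positive acute phase proteins then increase and those of negative ones, such as albumin, decrease. Serum amyloid A proteins travel on high-density lipoprotein, haptoglobin and hemopexin carry free haemoglobin and haem to be cleared, and lipocalin 2 withholds iron from bacteria by binding their siderophores.

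The libraries held 42003900 (control) and 41579630 (iFIRKO) normalized reads. Normalized reads are the authors' read counts scaled between libraries, here returned from log2 to the linear scale. Fold changes divide iFIRKO by control after 4.18 normalized reads are added to both. A gene was called higher or lower past a fold of 1.5, the study's own limit, which is 0.58 on the log2 scale. Intervals are exact Clopper-Pearson intervals at 95% on estimated read pairs, and they cover counting error only. *Insr*, whose deletion is confined by design to adipocytes, had 4246 and 3692 normalized reads, which does not check the labels in liver. Markers of hepatocytes were abundant in both libraries, with a median log2 fold change of -0.03 over 6 genes and none past the limit.

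The acute phase genes lay on both sides of no difference. Of the 10 genes, 0 were called higher and 1, *Apcs*, was called lower in the iFIRKO library. Among the 13391 genes tested, 4.46% were called higher and 7.29% lower. A second background took the mean level of *Saa3*, the least abundant of the 10, as its minimum, to be reached in at least 1 library. *Saa3* itself reached it in iFIRKO only. Among the 3612 genes that passed, the shares were 2.8% higher and 3.13% lower. The log2 fold change was above 0 for 4 genes (*Saa3*, *Saa2*, *Lcn2* and *Saa1*) and below 0 for 6, with a median of -0.28 over the 10 genes, against 0.01 over all genes tested. All 10 counting intervals excluded 0. Such intervals narrow with read depth, and the share of all tested genes whose interval excluded 0 was not computed. Together the 10 genes made up 1.83% of the control library and 1.52% of the iFIRKO library. Most of that sum came from *Hp* and *Hpx*. The other 8 genes together had 166432 and 157030 normalized reads, a log2 ratio of -0.08. All 10 genes passed the expression minimum of 41.8 normalized reads in both libraries.

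**Figure D1:**
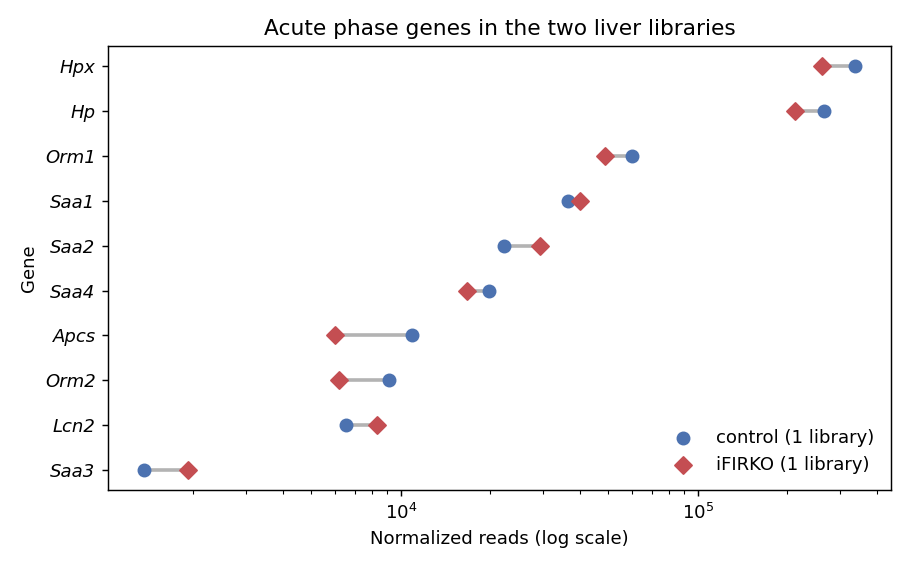
Normalized reads (log scale) of the 10 acute phase genes in the control library (blue circles) and the iFIRKO library (red diamonds), 1 library each. *Saa1*, *Saa2*, *Saa3* and *Lcn2* lie higher in iFIRKO, and the longest line joins the values of *Apcs*, 10893 and 6011.

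*Saa1* and *Saa2* encode the inducible serum amyloid A proteins of plasma. *Saa1* (ENSMUSG00000074115.5) lies on the reverse strand of chromosome 7 of GRCm38 from 46740497 to 46742980. *Saa2* (ENSMUSG00000057465.5) lies on the forward strand from 46751790 to 46754313. RefSeq lists each of these names as an older synonym of the other, and the names here are those of the files. Their coding sequences of 366 bases, without the stop codon, were 95.1% identical and differed at 18 positions, with a longest identical run of 73 bases. No stretch of 100 bases in either transcript occurred in a transcript of another gene in GENCODE M21. The stretch with the most differences, positions 60 to 149 of the coding sequence, is shown because reads are assigned to one gene or the other by such bases, and capitals mark the 11 positions that differ.
Saa1: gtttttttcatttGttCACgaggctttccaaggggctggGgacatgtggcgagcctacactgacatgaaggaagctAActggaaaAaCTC
Saa2: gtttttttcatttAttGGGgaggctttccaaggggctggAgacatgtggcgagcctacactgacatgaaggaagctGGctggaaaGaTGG

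*Saa1* stood at 36637 normalized reads in control liver against 39995 in iFIRKO liver (log2 fold change 0.13, interval 0.10 to 0.16). *Saa2* had 22204 and 29373, a log2 fold change of 0.40 (interval 0.37 to 0.44). Both were higher in iFIRKO by less than the fold limit, and *Saa2* by more than *Saa1*. The ratio of *Saa2* to *Saa1* reads was 0.606 in control and 0.734 in iFIRKO. Summed to 1 value, which no longer depends on how reads were divided between the copies, the genes had a log2 ratio of 0.24 (interval 0.21 to 0.26).

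*Saa3*, which is expressed in macrophages and adipose tissue as well as in liver, and *Saa4*, the constitutive member of the family, lie in the same cluster. All 4 genes fall within 42.3 kb, with *Saa3* from 46711998 to 46715700 and *Saa4* from 46727998 to 46732603. *Saa3* stood at 1363 normalized reads in control against 1914 in iFIRKO (log2 fold change 0.49, interval 0.35 to 0.63), the largest positive value among the 10 genes. Its interval includes the fold limit. *Saa4* had 19822 and 16634, a log2 fold change of -0.25 (interval -0.30 to -0.21). The constitutive gene thus lay on the other side of 0 from the other 3 genes of its cluster. Of the read pairs of the family, *Saa4* held 24.8% (interval 24.3% to 25.2%) in control and 18.9% (interval 18.6% to 19.3%) in iFIRKO, while *Saa1* held 45.8% and 45.5%. These are shares of reads, and the *Saa4* transcript, at 2094 nt, is longer than the 555 to 652 nt of the others.

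Promoters were searched for 5 motifs, a search planned for all 10 genes. RefSeq promoters of GRCm38.p6, from 250 bases before to 50 bases after the start, were matched for 8 of the 10 genes, all but *Orm1* and *Hp*. The letters, read on both strands, were TTCNNNGAA for STAT, GGG and CC with any 5 bases between them for NF-κB, TTNNGNAA for C/EBP, TGTTCT for the glucocorticoid receptor half-site and TATAAA for the TATA box. Of all 32851 promoters in the table, 8.30%, 50.8%, 40.7%, 19.0% and 13.6% held these motifs, in that order. The C/EBP letters were found in 7 of the 8 promoters and not in that of *Apcs*. The NF-κB letters were found in 4, those of *Saa1*, *Saa2*, *Saa4* and *Lcn2*. The STAT letters were found in *Apcs* alone, the glucocorticoid half-site in *Orm2* and *Apcs*, and the TATA box in *Orm2*. No 2 matches overlapped.

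Positions -250 to -61 from the start are shown for *Apcs*, the gene called lower, and for the 3 serum amyloid A genes that were higher in iFIRKO, with motif matches in capitals. The *Saa1* stretch is chr7:46743041-46743230 on the reverse strand and the *Saa2* stretch chr7:46751583-46751772 on the forward strand. The *Saa3* stretch is chr7:46715737-46715926 and the *Apcs* stretch chr1:172895115-172895304, both on the reverse strand. In *Saa1* a C/EBP match adjoins the NF-κB match, and the second run of capitals holds both. In *Saa2* the NF-κB letters are kept and the C/EBP letters beside them are not. Over all 300 bases the *Saa1* and *Saa2* promoters were 96.0% identical in alignment, against 59.8% for *Saa1* and *Saa3*.
Saa1: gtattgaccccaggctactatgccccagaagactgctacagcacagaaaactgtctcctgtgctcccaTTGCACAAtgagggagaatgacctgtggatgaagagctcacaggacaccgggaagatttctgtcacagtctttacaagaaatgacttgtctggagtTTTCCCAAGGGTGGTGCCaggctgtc
Saa2: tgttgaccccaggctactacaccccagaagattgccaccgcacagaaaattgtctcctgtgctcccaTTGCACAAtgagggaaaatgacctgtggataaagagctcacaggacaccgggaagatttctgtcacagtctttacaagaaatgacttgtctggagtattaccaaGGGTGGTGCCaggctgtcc
Saa3: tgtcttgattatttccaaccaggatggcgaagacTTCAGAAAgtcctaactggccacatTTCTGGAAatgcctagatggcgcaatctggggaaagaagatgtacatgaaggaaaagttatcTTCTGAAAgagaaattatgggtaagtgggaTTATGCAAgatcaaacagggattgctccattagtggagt
Apcs: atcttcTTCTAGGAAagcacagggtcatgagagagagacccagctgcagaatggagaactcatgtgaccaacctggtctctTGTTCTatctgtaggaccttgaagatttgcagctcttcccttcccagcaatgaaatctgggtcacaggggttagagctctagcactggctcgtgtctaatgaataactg

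*Apcs* encodes serum amyloid P, the pentraxin that serves as a major acute phase protein in mice. The gene (ENSMUSG00000026542.6) has 2 exons on the reverse strand of chromosome 1, from 172893961 to 172895041. It stood at 10893 normalized reads in control against 6011 in iFIRKO (log2 fold change -0.86, interval -0.92 to -0.79), or 44.8% lower. Of the genes tested, 3.05% had a lower log2 fold change. By normalized reads, not divided by transcript length, it ranked 498 among all symbols in control and 934 in iFIRKO. The related pentraxin gene *Crp*, C-reactive protein, lies 60.9 kb away and was named after its value was seen. It had 19410 and 14613 normalized reads, a log2 fold change of -0.41 (interval -0.45 to -0.37) that is within the limit.

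*Orm1* and *Orm2* encode alpha-1-acid glycoproteins, which bind lipophilic compounds in plasma. They lie on the forward strand of chromosome 4 with *Orm3* between them, *Orm1* from 63344560 to 63348163 and *Orm2* from 63362449 to 63365878. *Orm1* stood at 59848 normalized reads in control against 48604 in iFIRKO (log2 fold change -0.30, interval -0.32 to -0.28). *Orm2* had 9111 and 6183, a log2 fold change of -0.56 (interval -0.63 to -0.49), just inside the limit, which its interval includes. Both were lower in iFIRKO. *Orm3*, which is not one of the 10 genes, had 853 and 438, a log2 fold change of -0.96 (interval -1.21 to -0.73).

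The 3 orosomucoid genes were ordered in the same way by level and by difference, with the least abundant gene the lowest. *Orm1* held 85.7% of their read pairs in control and 88.0% in iFIRKO. The coding sequences of *Orm1* and *Orm2*, 621 bases each, were 89.9% identical, with a longest identical run of 104 bases, and 6.95% of the 100-base windows of each transcript occurred in the other. A read within such a window could belong to either gene, so their separate values are less certain than their sum. Summed over the 3 genes, the log2 ratio was -0.34 (interval -0.36 to -0.32). The stretch of 90 bases in which *Orm1* and *Orm2* differ most, positions 139 to 228 of the coding sequence, is shown with the 20 differing positions in capitals.
Orm1: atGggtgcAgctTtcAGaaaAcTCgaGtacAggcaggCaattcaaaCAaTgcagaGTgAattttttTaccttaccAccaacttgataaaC
Orm2: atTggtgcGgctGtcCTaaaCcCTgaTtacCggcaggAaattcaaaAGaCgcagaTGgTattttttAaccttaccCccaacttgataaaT

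*Lcn2*, lipocalin 2, lies on the reverse strand of chromosome 2 from 32384633 to 32388252. It stood at 6554 normalized reads in control against 8316 in iFIRKO (log2 fold change 0.34, interval 0.28 to 0.41), which is within the limit. Neutrophils and macrophages also express *Lcn2*, and macrophages *Saa3*. Of 10 neutrophil markers, 8 were under the expression minimum in both libraries, none was at 0 in both, and their summed level was 475 normalized reads in control and 161 in iFIRKO. The tested ones were *S100a8*, with 117 and 32.2 normalized reads, and *S100a9*, with 228 and 64.7, both called lower. *Lcn2* lay on the other side of 0 from both. Among the markers under the minimum, *Ngp* (3.97 and 8.05) and *Ly6g* (1.81 and 3.27), named after their values were seen, had more reads in iFIRKO. The others under it had fewer. Of 11 Kupffer cell and macrophage markers, 8 were called lower and 0 higher, and their summed level was 43078 and 27795, a log2 ratio of -0.63. *Cd5l* had a log2 fold change of -0.79, *Clec4f* of -0.62 and *Cd68* of -0.99. *Saa3* was higher in the library in which these markers were lower. In bulk RNA, fewer cells of a type and less RNA per cell cannot be told apart. The adipocyte list summed to 488 normalized reads in control and 589 in iFIRKO. Most of it was *Fabp4*, which endothelial cells and macrophages also express. Its markers *Adipoq*, *Plin1*, *Lep* and *Cfd*, named after their values were seen, were under the expression minimum in both libraries. All of these were at 0 in control. In iFIRKO *Adipoq* and *Plin1* had 2.01 normalized reads each, *Cfd* had 8.05 and *Lep* stayed at 0.

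*Hp* and *Hpx* were the most abundant of the 10 genes. *Hp* lies on the reverse strand of chromosome 8 from 109575128 to 109579172 and *Hpx* on the reverse strand of chromosome 7 from 105591613 to 105600137. *Hp* stood at 265758 normalized reads in control against 212041 in iFIRKO (log2 fold change -0.33, interval -0.34 to -0.31). *Hpx* had 338016 and 261480, a log2 fold change of -0.37 (interval -0.38 to -0.36). Both were lower by a similar amount, 20.2% and 22.6%, and the ratio of *Hp* to *Hpx* reads was 0.786 in control and 0.811 in iFIRKO.

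**Figure D2:**
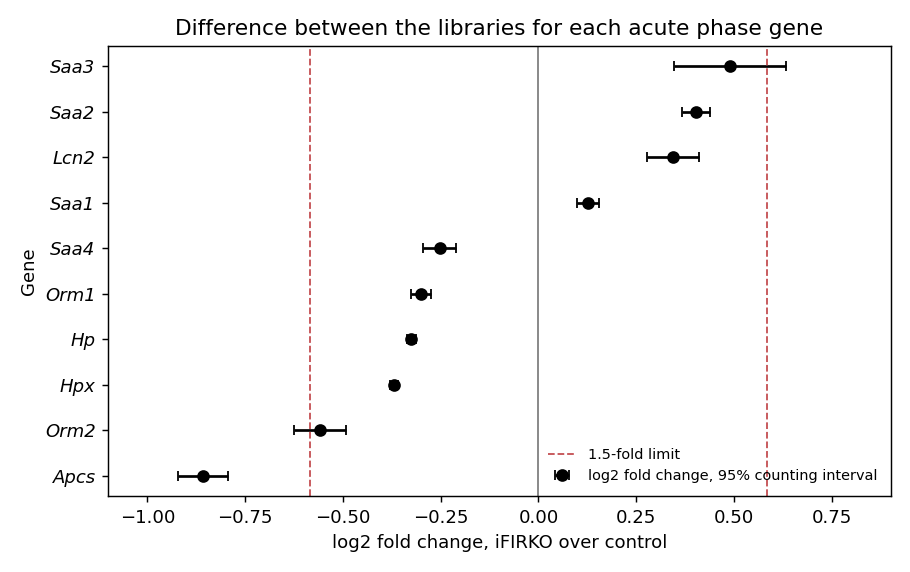
The log2 fold change (iFIRKO over control) of each acute phase gene, with bars for the 95% counting interval from 1 library per genotype and dashed lines at the 1.5-fold limit. *Apcs*, at -0.86, is the only point outside the limits, and the interval of *Orm2* reaches past the lower one and that of *Saa3* past the upper one.

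Levels can be compared between genes after division by transcript length. Per kilobase of the principal annotated transcript, the control library had 225494 normalized reads for *Hpx*, 197590 for *Hp*, 77224 for *Orm1*, 60159 for *Saa1* and 34056 for *Saa2*. There followed *Orm2* (11756), *Apcs* (11218), *Saa4* (9466), *Lcn2* (7163) and *Saa3* (2455). In the iFIRKO library *Saa1*, at 65672 per kilobase, lay above *Orm1*, at 62715. *Lcn2*, at 9088, moved above *Orm2* (7978), *Saa4* (7944) and *Apcs* (6191). The spread of these levels between mice is unknown with 1 library per genotype, so neighbours such as *Orm2* and *Apcs* in control, or *Orm2* and *Saa4* in iFIRKO, have no established order.

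**Figure D3:**
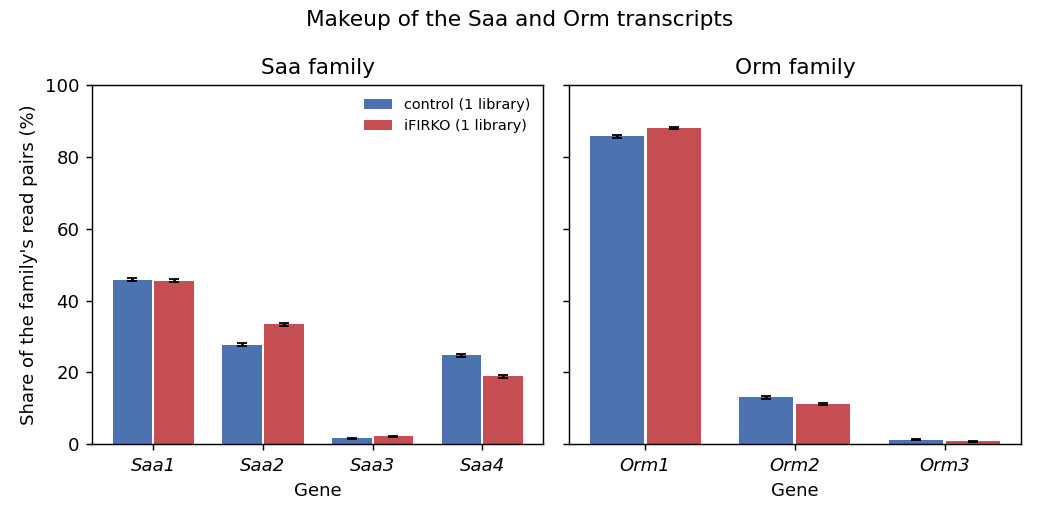
Share of the read pairs of the serum amyloid A family (left) and the orosomucoid family (right) held by each gene, in the control (blue) and iFIRKO (red) library, with 95% counting intervals. The *Saa2* share was 27.7% in control and 33.4% in iFIRKO, and the *Saa4* share 24.8% and 18.9%.

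Other acute phase genes were set beside these 10. Of 21 other positive acute phase genes, 20 were tested, 1 was called higher and 3 lower, and the median log2 fold change was -0.15. The most abundant were *C3*, the central complement component, with 750380 and 593856 normalized reads (log2 fold change -0.34), and the fibrinogen chains *Fga* (-0.14) and *Fgb* (-0.17). *Hamp*, the iron-regulatory hormone hepcidin, was the higher one, with 1785 and 2792 normalized reads (0.64). The lower ones were *Il1rn*, the secreted antagonist of the interleukin 1 receptor, with 748 and 236 normalized reads (-1.65), *Orm3*, and the lipopolysaccharide co-receptor gene *Cd14* (-0.60), which was named after its value was seen.

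Of 10 negative acute phase genes, 0 were called higher and 2 lower, with a median of -0.17. *Apoa1*, the main protein of high-density lipoprotein, had 168382 and 87600 normalized reads, a log2 fold change of -0.94 (interval -0.96 to -0.93). *Fetub*, fetuin B, was the other at -0.64. Albumin, *Alb*, was nearly level at -0.08, *Ahsg* was at -0.37, *Igfals* at -0.39, and *Ttr*, transthyretin, at 0.29. The medians of the positive and the negative lists thus lay on the same side of 0.

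**Figure D4:**
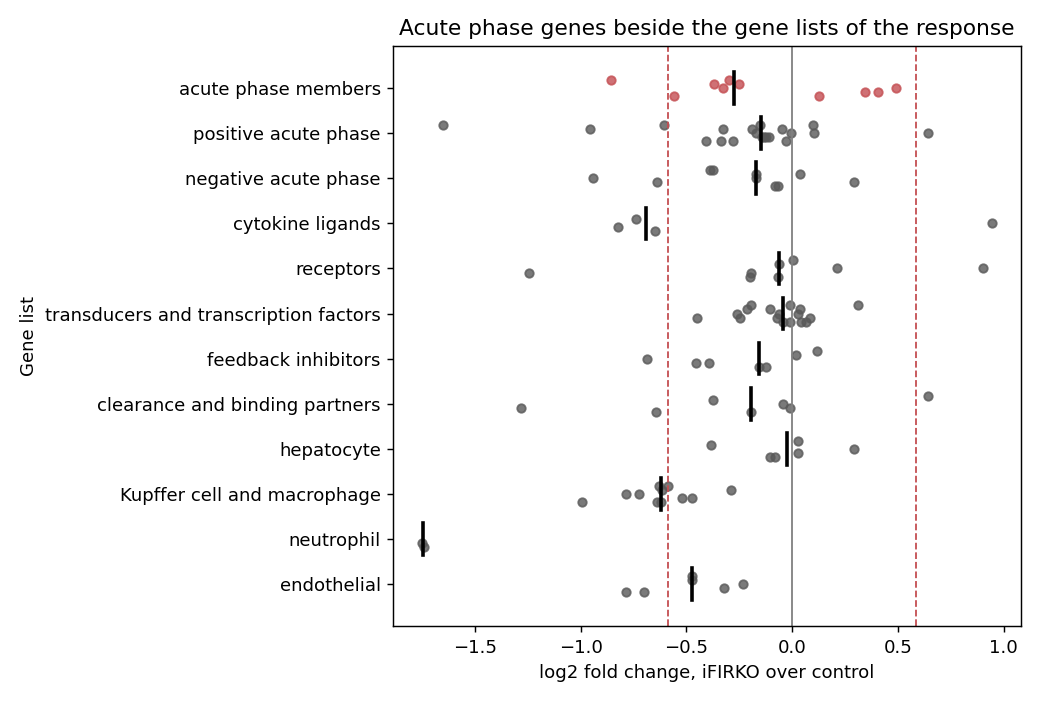
The log2 fold change (iFIRKO over control) of each tested gene, 1 point a gene, in the acute phase group (red) and in other gene lists (grey), with black bars at list medians and dashed lines at the 1.5-fold limit. The acute phase genes lie on both sides of 0, whereas all 11 Kupffer cell and macrophage markers lie below it.

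Most cytokine ligands of the response were near the limit of detection. Of 10, only 4 reached the expression minimum, of which 1 was called higher and 3 lower. *Il1a* had 228 and 127 normalized reads (log2 fold change -0.82), *Il1b* had 189 and 119 (-0.65), *Clcf1* had 108 and 63.4 (-0.74), and *Ctf1*, cardiotrophin 1, had 79.2 and 156 (0.94). *Il6*, a chief inducer of the response, named after its value was seen, had 21.8 and 20.1 and was not tested.

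Of 8 receptor genes, 1 was called higher and 1 lower. *Lifr*, the receptor subunit for leukemia inhibitory factor and, with the shared subunit gp130, for cardiotrophin 1, had 36335 and 15348 normalized reads, a log2 fold change of -1.24 (interval -1.28 to -1.20). *Il6st*, which encodes gp130, had 6924 and 6047 (-0.20). *Il22ra1* was the higher one, with 165 and 312 (0.90), while *Il1r1* (0.21) and *Il1rap* (-0.06) were within the limit.

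None of the 17 signal transducers and transcription factors passed the limit in either direction, with a median of -0.04. *Stat3* had 9145 and 8512 normalized reads (-0.10), *Hnf4a* was at -0.04, *Cebpa* at -0.07 and *Cebpb* at -0.26, and the value farthest from 0 was that of *Jak2* (-0.45). Of 7 tested feedback inhibitors, 1 was called lower, *Tnfaip3*, which restrains NF-κB (-0.69). *Nfkbia* was at -0.45, *Zc3h12a* at -0.39, *Bcl3* at 0.02, and *Socs3*, the STAT3-induced inhibitor of the interleukin 6 receptor, at -0.12 (interval -0.36 to 0.12, which spans no difference). Of 7 tested genes for clearance receptors and binding partners, 1 was called higher and 2 lower. *Fpr2*, a receptor for serum amyloid A on leukocytes, was at -1.28, and *Scarb1*, the receptor for high-density lipoprotein, at -0.64. *Lrp2*, an endocytic receptor for lipocalin 2, was the higher one, but with only 39.7 and 64.4 normalized reads its interval, -0.15 to 1.58, includes no difference. *Lrp1*, the receptor for the hemopexin-haem complex, was level at -0.01, and *Hmox2*, which breaks down haem, was at -0.38.

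The remaining marker lists moved as follows. The endothelial list had 2 of 6 genes lower and a median of -0.47, the B cell list 2 of 3 tested genes lower and a median of -1.30, and the T and NK cell list its 1 tested gene, *Gzma*, lower at -0.93 with an interval, -2.17 to 0.01, that includes no difference. The stellate and cholangiocyte lists had no gene past the limit, with medians of 0.15 over 6 genes and -0.23 over 5. The adipocyte list had 2 tested genes, *Fabp4* at 0.00 and *Cidec*, which steatotic hepatocytes also express, at 2.35. The part of the leukocyte genes in the values of *Saa3*, *Lcn2*, *Il1rn* and *Fpr2* was not tested.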

How the data were processed

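Liver mRNA was sequenced by the authors from stranded libraries. For each library they deposited log2 normalized read counts by gene symbol, with scaled values of 1 or less listed at 0. The submitters' notes name mm10. The aligner, counter, annotation and use of strand are not given in the sources used here. No count model was used, since most of the low values were not whole reads.

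Values were returned to the linear scale, and of rows with 1 symbol the most abundant was kept. The commonest low value was taken as 1 read pair, which gave an estimated 21138505 (control) and 20652784 (iFIRKO) pairs. Of values below 60, 45.5% and 48.4% were then whole reads within 0.01, so depth is an estimate, and reads without molecular identifiers are not independent molecules. Genes at a CPM of 1, 41.8 normalized reads, in at least 1 library were tested, after adding a CPM of 0.1 to each value. Genes at fewer than 3 read pairs in a library were given no fold of their own. Counts and medians still included such genes where they passed the minimum in use, or where none was set. No p-value was computed with 1 library per genotype. Lists were described by counts and medians.

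The members and lists were chosen with earlier results of these data known. Named genes are the 10 members, *Insr* and, of each list, up to 3 tested genes by level and 3 by fold; others are said to be named after their values were seen. Marker lists covered hepatocyte, Kupffer cell and macrophage, neutrophil, T and NK cell, B cell, endothelial, stellate, cholangiocyte and adipocyte genes. Positions and coding sequences came from GENCODE M21, which matched 93.3% of symbols, and promoters from RefSeq. A planned comparison of protein sequences was replaced by one of coding sequences. Folds and intervals were tested on simulated data. Software was biopython 1.88, matplotlib 3.10.9, scipy 1.17.1, pandas 2.3.3 and numpy 2.4.6 under Python 3.11.15.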

Additional observations from a re-analysis of the deposited data

How the results depend on the processing

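Of the acute phase genes, 0 were called higher and 1 lower under each other pseudocount, minimum CPM, scaling and treatment of copied or repeated symbols tried, whereas 0 were lower with a fold above 2. No gene of the 10 changed sign. With each gene kept separate, *Hp* and *Hpx* left their counting interval under 1 of 9 settings each and the other 8 under none. *Orm2* ranged from -0.57 to -0.56 and *Apcs* from -0.87 to -0.85. Summed with their close copies, *Saa1* moved to 0.24 and *Orm1* to -0.34, both outside their intervals. Over all genes tested, higher and lower calls numbered 209 and 267 past a fold of 2, 1957 and 2619 when no minimum was set, 288 and 440 from a CPM of 5, 372 and 576 after adding 41.8 normalized reads to each value, and 101 and 113 with the minimum at the level of the least abundant acute phase gene, which was chosen after seeing the data, against 597 and 976.

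With a fold above 2, genes past the limit fell to 1 in the positive acute phase, receptor and clearance lists and to 0 in the negative acute phase, ligand, feedback inhibitor, Kupffer cell, endothelial and T and NK cell lists. With a minimum CPM of 5, which tests fewer genes, 1 ligand and 1 clearance gene remained past the limit, and with a pseudocount of 41.8 normalized reads 2 ligands and 0 T and NK cell genes. Counts in this paragraph take both directions together. The neutrophil list had 8 genes past the limit and a median of -0.74 without a minimum. Among those 8, *Ngp* was higher, at 3.97 and 8.05 normalized reads, and was named after its values were seen. The list had 1 gene past the limit with the minimum in both libraries or at a CPM of 5. The B cell list had 1 with the minimum in both libraries, and the T and NK cell list 3 without one. The adipocyte list had 2 genes past the limit and a median of 0.57 without a minimum, and 0 genes and a median of -0.0028 with the minimum in both libraries or at a CPM of 5. The hepatocyte median moved to -0.038 with the total taken without the 20 most abundant genes. That scaling lowers the log2 fold change of abundant genes by about 0.012. A higher fold limit can only lower such counts, a larger pseudocount draws folds toward 0, and a changed minimum changes which genes are tested. Other causes were not tested. No paired analysis was possible because each genotype has 1 library, and no replicate could be left out. At this depth, genes near the minimum have the widest intervals.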
